A study of Mus musculus with 8 samples.

Results

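A T cell clone is the set of cells that descend from 1 rearranged cell and carry the same T cell receptor (TCR), so cells with the same receptor in 2 organs mark a clone that is present in both. Here the expanded clones of the liver of Eomes-transgenic (EomesTG) mice were divided by whether the same receptor was also found in the spleen of those mice. A clone was defined by the V segment, the nucleotide sequence of the third complementarity-determining region (CDR3) and the J segment of the productive TRB and the productive TRA chain with the most unique molecular identifiers (UMIs) of a cell barcode. Of 1028 clones among 3259 EomesTG liver barcodes with both chains, 81 held at least 3 barcodes. Of these 81 clones, 12 were also found among the 4186 spleen barcodes with both chains and are called spleen-shared, with 385 liver cells. The other 69 are called liver-only, with 1866 liver cells. These 2251 cells were compared out of 4521 cells that passed the filters in the EomesTG liver library and 18732 in the series.

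The series profiled CD8 T cells sorted from liver and spleen of 2 mouse strains, homozygous EomesTG mice and wild-type (WT) C57BL/6 mice, with the 10x Genomics 5 prime kit v1. For each strain, cells from 3 animals went into a single sort, so that each strain and organ gave 1 RNA library and 1 receptor library, 8 in all. The promoter that drives the transgene, and the age and sex of the animals, are not given in the sources used here, and the counts do not tell transgene reads from endogenous Eomes reads. Both classes of clone come from the same EomesTG liver library, no label ties a clone to a mouse, and neither cells nor clones are replicates, so no test against the spread between mice could be made. The intervals given cover counting error only, and the spread over clones is a description.

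T cells leave tissues along a gradient of sphingosine 1-phosphate, which they sense with the receptor encoded by S1pr1, a target of the transcription factor Klf2. Resident T cells of liver typically hold S1pr1 and Klf2 low and carry the chemokine receptor Cxcr6, which binds Cxcl16 in the liver sinusoids. PD-1, encoded by Pdcd1, is an inhibitory receptor of stimulated T cells, and Eomes is a T-box factor of memory and cytotoxic lymphocytes.

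The junctions below show what a match between the organs rests on, and are given for the spleen-shared clones described singly below and for the 2 largest liver-only clones. Each is the CDR3 nucleotide sequence of the deposited receptor contigs, 5′ to 3′, with capitals for the junction bases that match neither the V nor the J germline segment in GRCm38. D segments, which TRB chains carry and TRA chains lack, were not matched, so the TRB capitals can include germline D bases. The TRB locus lies on chromosome 6 and the TRA locus on chromosome 14.
TRBV12-1 TRBJ2-5, shared by the 2 largest spleen-shared clones: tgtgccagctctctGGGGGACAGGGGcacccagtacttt
TRAV13-1 TRAJ31, TRA of the spleen-shared clone of 233 liver barcodes: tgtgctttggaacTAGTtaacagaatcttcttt
TRAV9-4 TRAJ35, TRA of the spleen-shared clone of 75 liver barcodes: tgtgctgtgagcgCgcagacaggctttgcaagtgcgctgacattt
TRBV31 TRBJ2-7, spleen-shared clone of 17 liver barcodes: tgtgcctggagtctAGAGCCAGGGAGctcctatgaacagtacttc
TRBV29 TRBJ1-1, spleen-shared clone of 13 liver barcodes: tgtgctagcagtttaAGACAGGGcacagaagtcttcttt
TRBV31 TRBJ1-5, spleen-shared clone of 4 liver barcodes: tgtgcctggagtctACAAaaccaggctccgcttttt
TRBV12-2+TRBV13-2 TRBJ2-5, spleen-shared clone of 7 liver and 10 spleen barcodes: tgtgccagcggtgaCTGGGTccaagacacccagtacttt
TRBV3 TRBJ1-1, spleen-shared clone of 7 liver and 5 spleen barcodes: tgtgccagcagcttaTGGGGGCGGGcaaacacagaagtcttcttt
TRBV3 TRBJ1-5, liver-only clone of 492 liver barcodes: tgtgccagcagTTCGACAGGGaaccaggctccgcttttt
TRBV15 TRBJ2-7, liver-only clone of 448 liver barcodes: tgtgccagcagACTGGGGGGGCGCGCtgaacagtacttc

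The TRB junctions held a median of 10 such bases in spleen-shared clones (range 4 to 13) and of 10 in liver-only clones (range 2 to 18). TRA junctions held fewer, with a median of 4 in spleen-shared clones and 3 in liver-only clones. As TRB capitals can include D bases, TRB and TRA cannot be compared by these counts. The median TRB CDR3 was 39 bases long in spleen-shared clones and 42 bases in liver-only clones. TRBJ2-5 was used by 4 of 12 spleen-shared clones and 7 of 69 liver-only clones, and TRBV31 by 2 of 12 and 1 of 69. These counts are too small to read a preference from.

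Sharing with the spleen was uncommon among expanded EomesTG liver clones. It held for 14.8% of the 81 clones (exact binomial interval 7.90 to 24.4%), while 21 of 45 WT liver clones of at least 3 barcodes were seen in WT spleen, or 46.7% (31.7 to 62.1%). Sharing did not follow clone size in 1 direction. Of EomesTG liver clones with 1 barcode 11 of 887 were seen in spleen, with 3 to 5 barcodes 3 of 36, with 6 to 10 barcodes 5 of 16, with 11 to 20 barcodes 2 of 12, with 21 to 50 barcodes 0 of 9, and with more than 50 barcodes 2 of 8. The intervals of all groups from 3 barcodes upward overlapped.

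**Figure D1:**
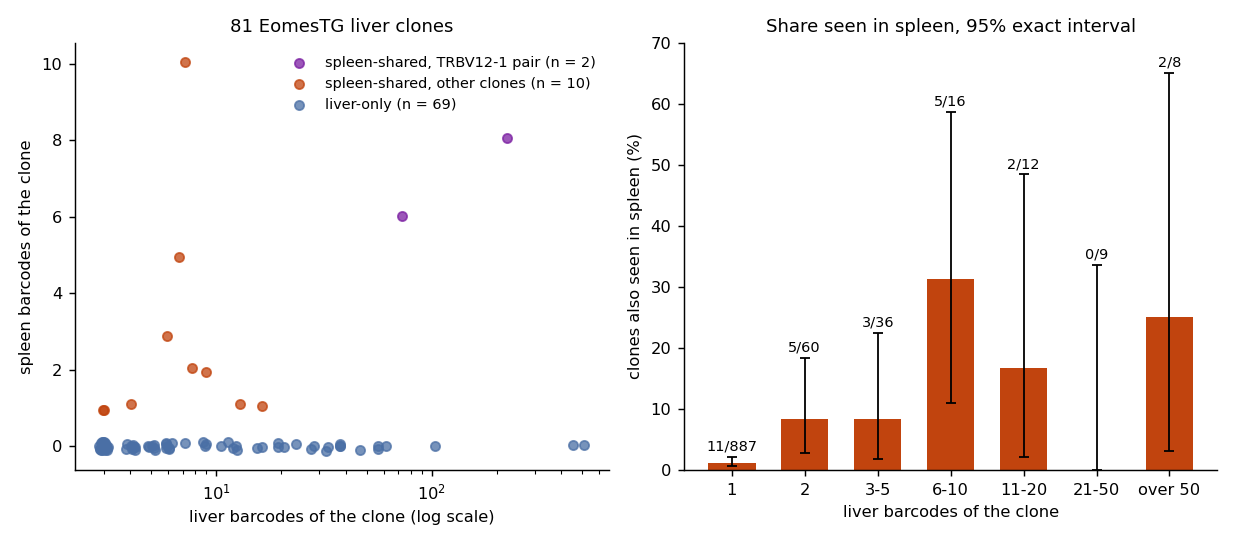
Left, spleen barcodes against liver barcodes (log scale) for the 81 EomesTG liver clones of at least 3 barcodes, with points spread slightly to be visible; right, the percentage of EomesTG liver clones seen in spleen by clone size, with 95% exact binomial intervals and the counts above the bars. Most of the largest clones lie at 0 spleen barcodes, and 1 spleen-shared clone has 10 spleen barcodes for 7 in liver.

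Of the 81 clones 0 were seen in WT spleen and 0 in WT liver. The EomesTG liver and spleen receptor tables had 30 barcodes in common, 0 of them with the same clone, and 0 of the 41 spleen barcodes of the spleen-shared clones was also a liver barcode. The RNA libraries of the organs had 37 barcodes in common, 19 of them among the liver cells compared and 5 of these in spleen-shared clones; without these 19 cells, 404 genes were at least 1.5-fold higher and 990 lower over cells, against 404 and 986 with them. The class liver-only is limited by depth, because a clone with 0 of 4186 spleen barcodes may still make up to 0.0717% of them. The class spleen-shared rests on few spleen cells as well: 5 of its 12 clones had 1 spleen barcode.

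The spleen-shared class was dominated by 1 TRB. The clones of 233 and 75 liver barcodes, with 8 and 6 spleen barcodes, had the same TRBV12-1 TRBJ2-5 junction and differed in TRA. Of 325 liver barcodes with this TRB, 147 carried both TRA chains, 132 the TRAV13-1 chain only, 29 the TRAV9-4 chain only and 17 neither. In spleen the 15 barcodes with this TRB divided into 7, 5, 2 and 1. Whether the 2 clones are 1 clone, divided here by which TRA had more UMIs in a barcode, was not tested. Counted as 1 clone, 11 spleen-shared and 69 liver-only clones remain, and 13.8% of the clones were shared. Of 30 named genes past 1.5-fold with each clone once, 29 were then still past it in the same direction, the exception being Coch at -0.22, while Prss2 was at 1.20 in place of 2.11. The 2 clones, called the TRBV12-1 pair below, made up 308 of the 385 spleen-shared liver cells, or 80%. The 12 spleen-shared clones thus hold 11 TRB chains, and 2 liver-only clones with 13 liver barcodes carried the TRB of a spleen-shared clone with another TRA. In the liver-only class the 2 largest clones made up 50.4% of the cells. For this reason every gene is given both from UMIs summed over cells and with each clone counted once, as the mean over clones of UMIs per 1000000 UMIs of the clone (CPM).

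Both classes were CD8 T cells by their markers. Summed CPM of 7 CD8 T cell markers were 7950 in spleen-shared clones and 9603 in liver-only clones, and Cd4 had 0 UMIs in both. NK and innate-like markers (6 genes) summed to 3.58 CPM in spleen-shared clones, with 5 of the 6 at 0, and 138 CPM in liver-only clones, where the clone range was 0 to 2836. Myeloid and dendritic markers (10 genes, 6 of them at 0 in spleen-shared clones) summed to 43.0 CPM in spleen-shared clones and 8.43 CPM in liver-only clones, mostly Cd74, and reached 945 CPM in 1 spleen-shared clone. B cell and plasma cell markers were mostly Igkc and summed to 68.0 CPM in spleen-shared and 28.0 CPM in liver-only clones. Hepatocyte markers were at 0 in spleen-shared clones and at 2.38 CPM in liver-only clones. CD4 T cell markers (1.79 and 1.54 CPM), endothelial and stromal markers (5.37 and 5.35 CPM) and erythroid and platelet markers (0 and 0.119 CPM) were low in spleen-shared and liver-only clones alike. The part of these markers in the results below was not tested. Cells had a median of 3866 UMIs in spleen-shared clones and 3826.5 in liver-only clones, and the classes held 1675861 and 8417571 UMIs. Per clone the median was 39413.5 UMIs in the spleen-shared and 26556 in the liver-only class. Counts of clones with UMIs of a low gene are thus not at equal depth, and the part of this was not tested.

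Genes of egress and recirculation were higher in liver cells of spleen-shared clones. Of 9 listed genes with at least 50 UMIs over both classes, 6 were at least 1.5-fold higher by both measures and 0 lower, where 2.7% of all 8975 genes tested were higher by both measures and 7.99% lower. Over cells alone 4.5% of all genes were higher and 11% lower, and with each clone once 12.4% were higher and 23% lower. The list's median log2 ratio was 0.80 over cells and 0.96 with each clone once, against -0.08 and -0.09 over all genes tested. In sums over cells, more cells that express a gene and more RNA per cell cannot be told apart.

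S1pr1 was found in 9 of 12 spleen-shared clones, at 0, 21.5 and 262 CPM (lowest, median and highest), and in 17 of 69 liver-only clones, at 0, 0 and 111 CPM. The ranges overlapped, and 10 of 69 liver-only clones lay above the spleen-shared median. The log2 ratio was 2.33 over cells (1.59 to 3.07, from 33 and 33 UMIs) and 2.59 with each clone once. Klf2 was at 179, 1419 and 4052 CPM in spleen-shared clones and at 0, 658 and 5851 CPM in liver-only clones (lowest, median, highest), with 10 of 12 spleen-shared clones above the liver-only median. Its log2 ratio was 0.57 over cells (0.49 to 0.65) and 0.87 with each clone once. Both genes were spread widely in each class, and Klf2 passed 1.5-fold only with each clone once.

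Klf3, a Krüppel-like factor related to Klf2, was above the liver-only median in 11 of 12 spleen-shared clones. It had UMIs in 11 of 12 spleen-shared clones, with a median of 78.9 CPM, and in 24 of 69 liver-only clones, with a median of 0 CPM. The log2 ratio was 2.93 over cells (2.51 to 3.35) and 1.83 with each clone once. Sidt1, a membrane protein of lymphocytes, followed at 1.35 over cells and 1.58 with each clone once. The integrin chain genes Itgb7 (0.94 and 0.96) and Itgb1 (0.69 and 1.01) and the sphingosine 1-phosphate receptor gene S1pr4 (0.80 and 0.84) were also higher by both measures.

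**Figure D2:**
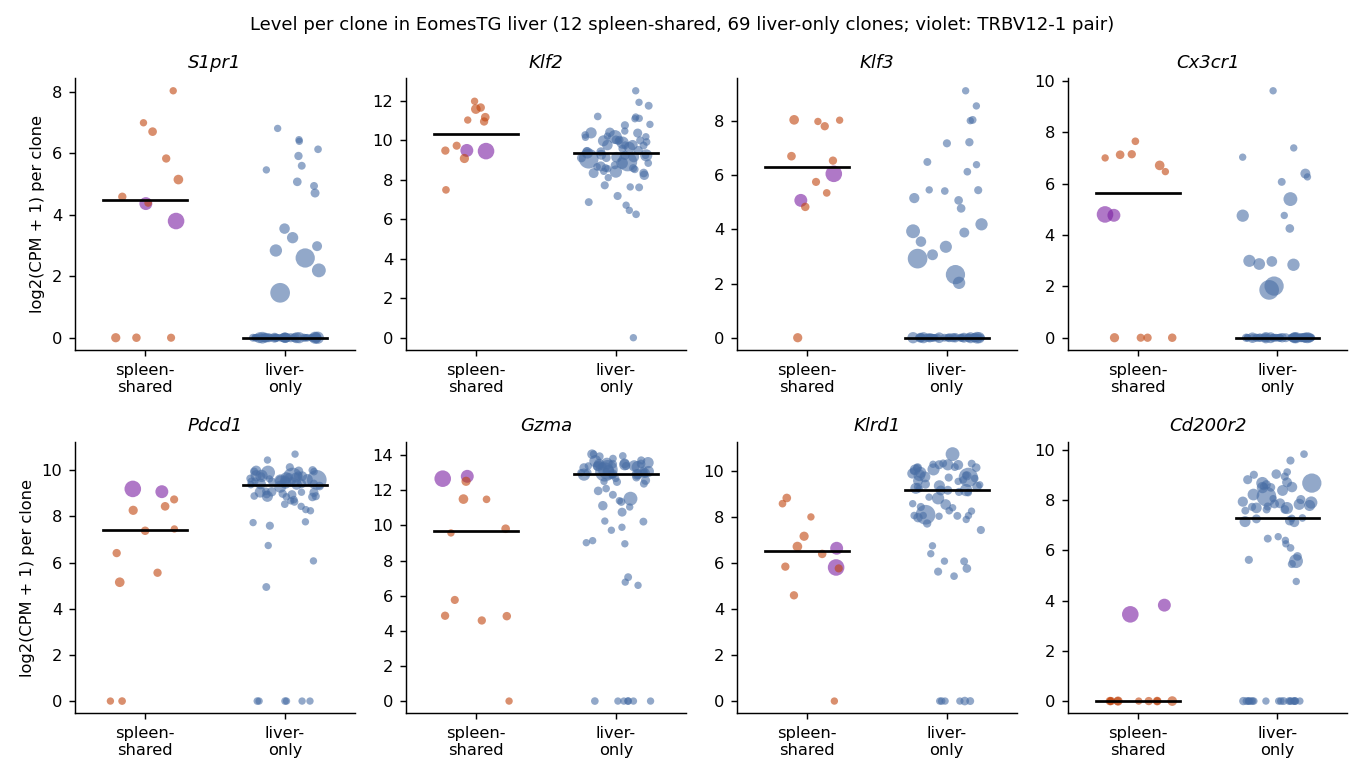
Level of 8 genes per clone as log2(CPM + 1) in EomesTG liver; spleen-shared clones (n = 12) stand left of liver-only clones (n = 69), point area grows with clone size, the TRBV12-1 pair is violet and the black bars are medians over clones. S1pr1, Klf3 and Cx3cr1 have a median of 0 in liver-only clones, and Pdcd1, Gzma and Klrd1 lie below the liver-only median in all 12 spleen-shared clones.

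Of 11 genes of the terminal effector list 3 were higher by both measures (Klrg1, Itgax and Cx3cr1) and 2 lower (Lgals3 and Gzma). Over all genes tested 2.7% were higher and 7.99% lower by both measures. The list's median was 0.21 over cells and 0.35 with each clone once. Klrg1, an inhibitory lectin receptor of effector T cells, had UMIs in 6 of 12 spleen-shared clones (highest 358 CPM) and in 11 of 69 liver-only clones (highest 151 CPM). Its median was 3.27 CPM in spleen-shared clones, or 0 CPM without the TRBV12-1 pair, and 0 CPM in liver-only clones. The 2 TRBV31 clones described below had the most Klrg1 of the spleen-shared clones and weigh heavily in its mean over clones. The log2 ratio was 3.40 over cells (2.73 to 4.11) and 2.97 with each clone once. Cx3cr1, the fractalkine receptor gene, was at 0, 57.0 and 199 CPM in spleen-shared clones and at 0, 0 and 780 CPM in liver-only clones (lowest, median, highest), with log2 ratios of 2.10 and 1.76. Gzma, encoding granzyme A, went the other way and was below the liver-only median in 12 of 12 spleen-shared clones. Its level was 0, 828 and 7106 CPM in spleen-shared clones and 0, 7655 and 17054 CPM in liver-only clones (lowest, median, highest), with a log2 ratio of -0.61 over cells and -1.58 with each clone once. Gzmk (0.18 and 0.21) and Gzmb (-0.28 and -0.28) stayed under 1.5-fold by both measures.

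Genes of naive and stem-like T cells gave a less even picture. Of 8 genes tested 4 were higher by both measures and 1 lower, against 2.7% and 7.99% of all genes tested. The list's medians were 0.91 over cells and 0.78 with each clone once. The 4 were the transcription factor genes Id3 (1.64 and 1.06), Lef1 (1.47 and 0.83) and Tcf7 (1.38 and 0.74) and the surface receptor gene Slamf6 (1.28 and 1.03). All are low: Tcf7, for the factor TCF-1, had 31 UMIs in 6 of 12 spleen-shared clones and 60 UMIs in 26 of 69 liver-only clones. Actn1, an actin crosslinker of naive T cells, was lower (-0.65 and -1.70). Only 2 of the 8 genes have at least 200 UMIs, Actn1 and Foxp1 (-0.15 and -0.12).

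Genes of tissue residency and of inhibitory receptors were lower or did not reach 1.5-fold. Of 13 residency genes 0 were higher and 3 lower by both measures, where 7.99% of all genes tested were lower. The 3 were Chn2 (-0.76 and -1.55), Itga1, the alpha chain of the collagen-binding integrin CD49a (-0.95 and -1.56), and Ahr, the aryl hydrocarbon receptor (-0.63 and -0.77). Cxcr6 was below the liver-only median in 11 of 12 spleen-shared clones, at 0, 328 and 690 CPM in spleen-shared clones and 108, 526 and 1154 CPM in liver-only clones (lowest, median, highest). Its log2 ratio was -0.35 over cells (-0.47 to -0.23) and -0.91 with each clone once. Most spleen-shared clones still had Cxcr6 UMIs (11 of 12), as had 69 of 69 liver-only clones. Cd69, an activation and retention marker, was under 1.5-fold by both measures (-0.08 and -0.55).

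Of 15 genes of inhibitory receptors and exhaustion 0 were higher and 4 lower by both measures, where 7.99% of all genes tested were lower. The list's median was -0.33 over cells and -0.66 with each clone once. Pdcd1 was below the liver-only median in 12 of 12 spleen-shared clones, at 0, 170 and 583 CPM in spleen-shared clones and 0, 661 and 1657 CPM in liver-only clones (lowest, median, highest). The log2 ratio was -0.66 over cells (-0.77 to -0.56) and -1.41 with each clone once. The nuclear receptor gene Nr4a2, induced by antigen receptor signals, was likewise below the liver-only median in 12 of 12 clones (-0.73 and -1.07). Cd244 (-0.72 and -1.70) and Cd200r1 (-2.28 and -2.40), both for inhibitory surface receptors, were the other 2. Lag3, an inhibitory receptor gene, was at -0.49 and -0.88, and Tox, a nuclear factor of chronically stimulated T cells, at -0.13 and -0.66, so both passed 1.5-fold only with each clone once. Eomes differed by less than 1.5-fold by both measures, at 218 CPM in spleen-shared and 210 CPM in liver-only cells and a log2 ratio of 0.06 (-0.11 to 0.22) and 0.20.

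NK receptor genes were lower in spleen-shared clones. Of 14 genes tested 13 were lower by both measures and 0 higher (Klra3 was at 0.26 and -2.03), where 7.99% of all genes tested were lower. Among the 13, Fcer1g, Tyrobp, Klri2 and Klra6 had 0 UMIs in spleen-shared clones. They passed the minimum of 50 UMIs through the liver-only class alone and could only come out lower over cells. The median log2 ratio of the list was -2.66 over cells and -2.21 with each clone once (genes without a UMI in a class were set at 3 counts over that class). Klrd1, encoding the CD94 chain that pairs with NKG2 receptors, was below the liver-only median in 12 of 12 spleen-shared clones, at 0, 90.3 and 448 CPM in spleen-shared clones and 0, 566 and 1680 CPM in liver-only clones (lowest, median, highest). Its log2 ratio was -3.03 over cells (-3.28 to -2.79) and -2.04 with each clone once. Klre1, a lectin-like receptor gene of the same cluster on chromosome 6, had 29 UMIs in 5 of 12 spleen-shared clones and 3398 UMIs in 56 of 69 liver-only clones, with a log2 ratio of -4.54 over cells (-5.12 to -4.02) and -4.45 with each clone once. Klrk1, for the activating receptor NKG2D, was at -2.76 and -2.29, and Klrc1, for the inhibitory NKG2A chain, at -1.32 and -2.00. The Klra genes of the list are near-identical copies of each other, so their single values are uncertain.

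The adaptor genes Fcer1g and Tyrobp, which couple NK receptors to signalling, had 0 UMIs in spleen-shared clones. They had 638 and 333 UMIs in liver-only clones, found in 22 and 29 of the 69 clones. Both, with Klrb1c, also belong to the NK and innate-like markers given above, and the part of those markers in this result was not tested. Klre1 was seen in each of the 12 largest liver-only clones. Klri2 was also at 0 UMIs in spleen-shared clones and had 121 UMIs in 16 of 69 liver-only clones. With 3 counts set for the spleen-shared class it was 8.03-fold lower over cells, with the interval bound nearest equality at log2 -2.69.

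The single gene lowest in spleen-shared clones by the naming rule was Cd200r2, a member of the CD200 receptor family. It had 14 UMIs in 2 of 12 spleen-shared clones, both of the TRBV12-1 pair, and 2338 UMIs in 49 of 69 liver-only clones. The log2 ratio was -5.06 over cells (-5.93 to -4.31) and -6.62 with each clone once. The rule leaves out markers of other cells, and among these Fcer1g had a lower bound nearest equality, -5.10. Several genes were nearly unseen in spleen-shared clones: Calcb, a calcitonin gene-related peptide gene, had 1 UMI against 540 (log2 ratio over cells -12.05 to -4.26), Spp1, encoding osteopontin, 1 against 221 (-10.77 to -2.97), Ccdc80 2 against 235 (-7.60 to -2.68) and Nrgn, for neurogranin, 3 against 475 (-7.26 to -3.42). Slc16a11, Filip1 and Arap3 had 0 UMIs in spleen-shared clones and 171, 132 and 106 UMIs in 20, 23 and 27 of 69 liver-only clones. Set at 3 counts for the class they were 11.3-fold, 8.76-fold and 7.03-fold lower over cells. The interval bounds nearest equality were at log2 -3.19, -2.81 and -2.49. In most liver-only clones these 7 genes were unseen as well, with a median of 0 CPM each. Without the TRBV12-1 pair all 7 and Cd200r2 had 0 UMIs in the 77 remaining spleen-shared cells. Set at 3 counts for the class, the log2 ratio over cells was -5.07 for Cd200r2, -2.95 for Calcb and -0.61 for Arap3. The interval bounds nearest equality were -4.77, -2.65 and -0.28.

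**Figure D3:**
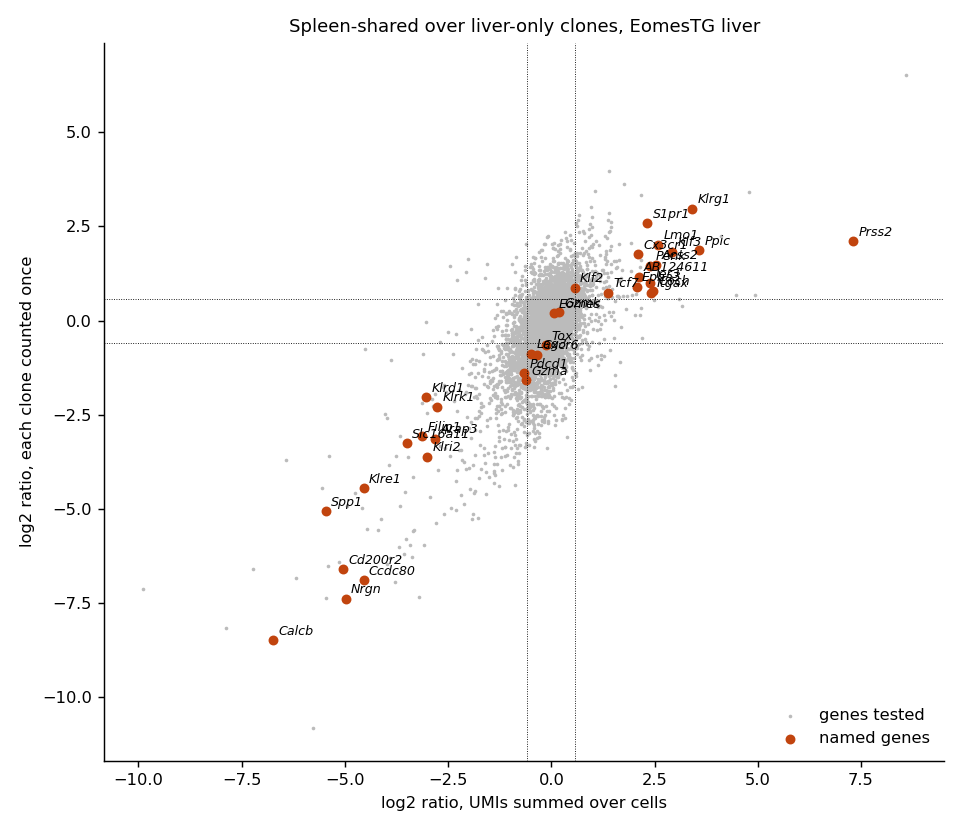
Log2 ratio of spleen-shared over liver-only clones with UMIs summed over cells (x axis) and with each clone counted once (y axis) for genes tested (grey) and named genes with at least 50 UMIs (orange), with dotted lines at 1.5-fold; genes at 0 UMIs in a class are drawn at 3 counts for that class. Prss2 lies far to the right of the other named genes, and Calcb, Nrgn, Ccdc80 and Cd200r2 lie at the lower left.

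Some of the highest genes over cells belonged to the TRBV12-1 pair. Prss2, a trypsinogen gene, was at 673 and 775 CPM in the clones of 233 and 75 barcodes, at 23.5 CPM in 1 other spleen-shared clone and at 0 in the other 9. In liver-only clones it had UMIs in 4 of 69, and the clones of 5 and 3 barcodes with TRBV1 and TRBV16 were at 988 and 954 CPM. Its log2 ratio was 7.31 over cells and 2.11 with each clone once, and without the pair it was -0.32 over cells (-5.67 to 2.27, from 1 and 29 UMIs). Prss2 lies inside the TRB locus, at chr6:41521787-41525079 (plus strand, GRCm38), between Trbv30, which ends at 41281990, and Trbd1, which starts at 41533201. Without the pair Ppic, a cyclophilin gene, was at -0.16 over cells against 3.58 with it, Ier3, an immediate early response gene, at -0.16 against 2.40, and Coch, for the extracellular protein cochlin, had 0 UMIs in the 10 remaining clones. Penk, the proenkephalin gene, was in liver not wholly confined to the pair, with 4 of its 47 spleen-shared UMIs outside it. Without the pair it was at 1.05 over cells (-0.89 to 2.50, from 4 and 45 UMIs) and at 1.26 with each clone once. Its UMIs then came from 1 of the 10 remaining spleen-shared clones, at 138 CPM.

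Other genes of the naming rule were also higher without the pair. Then Lmo1, a LIM-domain transcription cofactor gene, was at 2.91 over cells (2.10 to 3.65) and 2.08 with each clone once, Acss2, an acetyl-CoA synthetase gene, at 3.44 (2.45 to 4.37) and 1.59, and AB124611 at 2.54 (1.75 to 3.26) and 1.29. Itgax, the CD11c gene, was at 1.78 (0.58 to 2.79) over cells but under 1.5-fold with each clone once (0.54), and Epha3, an ephrin receptor gene, was under 1.5-fold by both (0.57 and 0.54). Over cells S1pr1 was at 3.30 (2.28 to 4.24), Klf2 at 1.51 (1.39 to 1.63), Pdcd1 at -2.54 (-2.99 to -2.13), Gzma at -2.19 (-2.30 to -2.08) and Eomes at -0.73 (-1.18 to -0.31) without the pair. The pair thus lay nearer to the liver-only class than the other 10 clones did for these 5 genes over cells, and Eomes passed 1.5-fold only without it; with each clone once Eomes was then at 0.13. The egress and inhibitory lists had medians farther from 0 over cells without the pair, 1.75 and -1.25.

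The same directions were seen among small clones for the genes below. Restricted to clones of 3 to 10 barcodes, 8 spleen-shared clones with 47 cells and 44 liver-only clones with 196 cells remained. Over cells S1pr1 was at 2.01 (0.63 to 3.40), Klf2 at 0.91 (0.73 to 1.10), Klrg1 at 2.93 (1.84 to 4.12) and Cx3cr1 at 2.26 (1.25 to 3.30). Pdcd1 was at -1.98 (-2.56 to -1.46), Cxcr6 at -1.21 (-1.67 to -0.77), Gzma at -2.96 (-3.18 to -2.75) and Klre1 at -3.43 (-5.07 to -2.18). Tox was at -1.29 (-1.77 to -0.84) in these clones. With each clone once the NK receptor list had a median of -1.88 and the egress list one of 0.87.

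**Figure D4:**
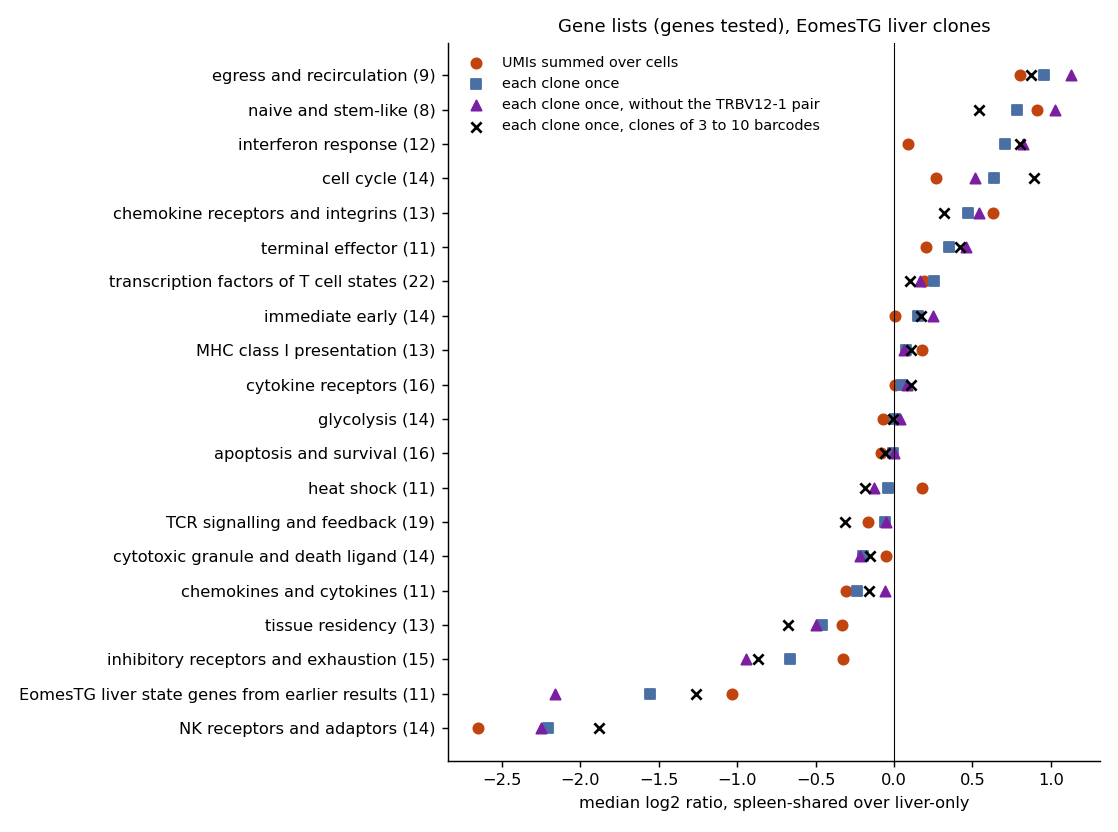
Median log2 ratio of spleen-shared over liver-only clones for 20 gene lists (number of genes tested in brackets) from UMIs summed over cells and with each clone counted once; clone-once medians are also drawn without the TRBV12-1 pair and in clones of 3 to 10 barcodes. The egress list lies right of 0 and the inhibitory and NK receptor lists left of 0 in all 4 settings drawn.

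Spleen-shared clones did not share 1 profile. The TRBV12-1 pair and the TRBV29 clone of 13 barcodes had 583, 536 and 306 CPM of Pdcd1 and 6475, 7106 and 5837 CPM of Gzma, more Gzma than each of the other 9. Their S1pr1 was 12.9, 19.6 and 0 CPM. High Pdcd1 was not theirs alone, as a spleen-shared clone of 3 to 10 barcodes had 425 CPM, more than the TRBV29 clone. The 2 TRBV31 clones had 287 and 358 CPM of Klrg1 and 2892 and 2865 CPM of Gzma with little or no Pdcd1 (34.4 and 0 CPM) and Tox (34.4 and 0 CPM), and their Klf2 differed, 3076 and 179 CPM. The clone with more spleen than liver barcodes (10 and 7) had 1988 CPM of Klf2, 336 CPM of Eomes, 1260 CPM of Gzmk and 28.0 CPM of Gzma. The TRBV3 clone, with 5 spleen and 7 liver barcodes, had the most Tcf7 of the 12, 254 CPM, and the least Eomes, 23.1 CPM. Clones of 3 to 9 cells rest on 7898 to 50265 UMIs, so that single UMIs weigh heavily there.

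**Figure D5:**
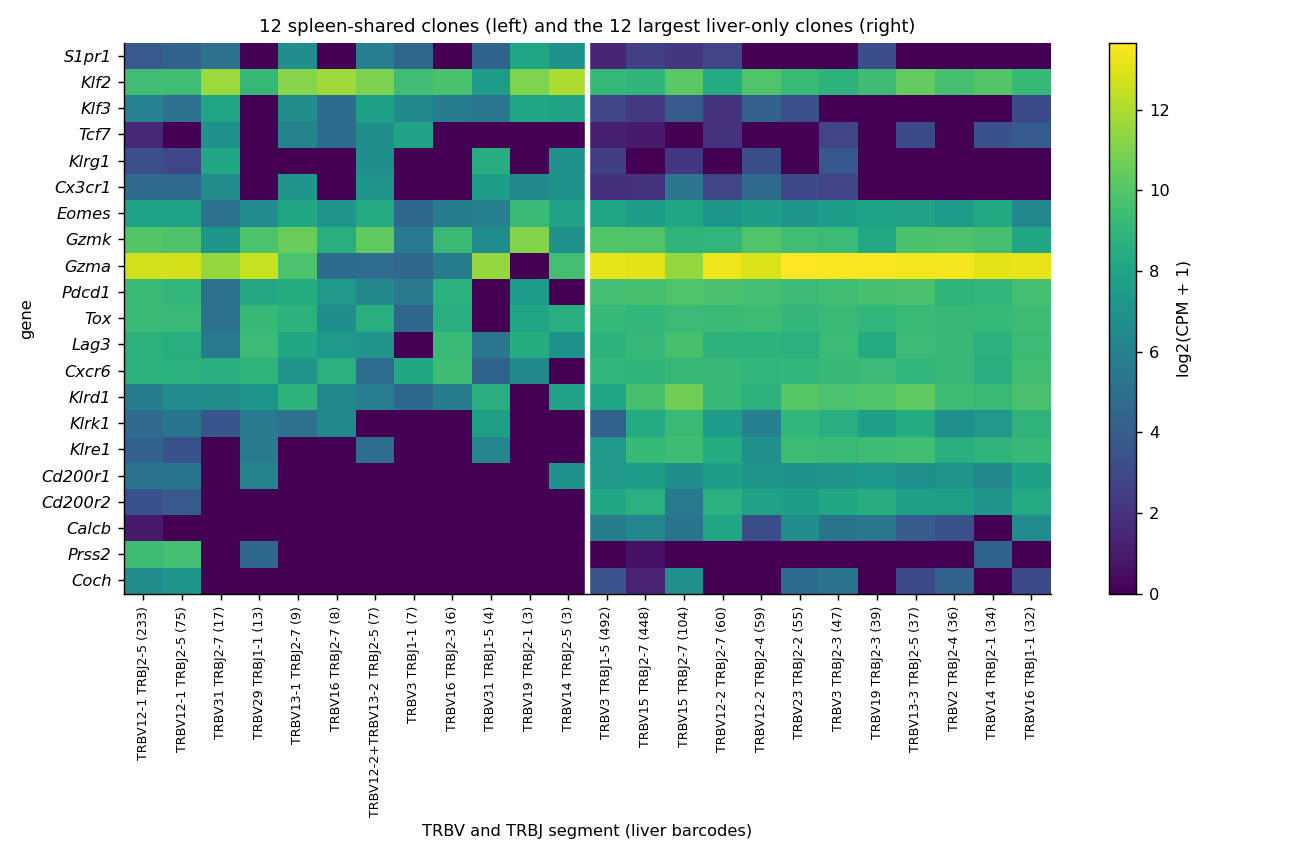
Level of named genes and list members as log2(CPM + 1) (colour) in the 12 spleen-shared clones (left of the white line) and the 12 largest liver-only clones (right), each named by TRBV and TRBJ segment with its liver barcodes in brackets. Cd200r2 and Klre1 are seen in all 12 large liver-only clones and in 2 and 5 of the 12 spleen-shared clones, and Prss2 is high in the TRBV12-1 pair.

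Other lists differed by 1 measure or in a few members. Chemokine genes Ccl3 (-1.36 and -2.01) and Ccl4 (-1.04 and -1.46) were lower, with Ccl4 below the liver-only median in 12 of 12 spleen-shared clones, while Ccl5 was under 1.5-fold (0.36 and 0.18). Of 22 transcription factor genes of T cell states 6 were higher by both measures, among them Maf (1.83 and 0.65), Rora (1.29 and 1.63) and Irf4 (0.61 and 1.41). The factor genes Nfil3 (-0.65 and -1.83) and Irf8 (-1.11 and -1.50) were lower. Nr4a1, an immediate target of antigen receptor signalling, was higher (1.17 and 2.02), opposite to Nr4a2. Cell cycle genes were higher with each clone once (7 of 14, median 0.64) more than over cells (1 of 14, median 0.27), and interferon response genes too (8 of 12, median 0.71, against 1 of 12, median 0.09). Of all genes tested 12.4% were higher with each clone once and 4.5% over cells. Heat shock, glycolysis and MHC class I presentation genes had 0 members past 1.5-fold by both measures. Of 13 chemokine receptor and integrin genes 4 were higher and 1 lower by both measures, and of 14 cytotoxic genes 0 were higher and 2 lower (Gzma and Gzmc, the last with 1 UMI in spleen-shared and 92 in liver-only clones). The shares by both measures over all genes tested were 2.7% higher and 7.99% lower. The lists overlap, so they are not separate evidence. Itgax, Itgb1, Itgb7, Cx3cr1, Itga1 and Gzma had already been counted in lists above. Cd244 was in the inhibitory and NK receptor lists, and Id3, Lef1 and Tcf7 were in the naive and transcription factor lists. In the lists of cytokine receptors (16 genes), T cell receptor signalling (19 genes), immediate early genes (14 genes) and apoptosis (16 genes), at most 1 gene was higher and at most 1 lower by both measures. Of 11 genes that earlier results of these data had tied to EomesTG liver cells, 3 were higher and 7 lower, which is no independent evidence.

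The same clones could be read in spleen, against all other cells of that library whatever their state or clone size. Its 4186 barcodes with both chains held 4100 clones, so most of those other cells were of clones seen once. The 41 spleen cells of the spleen-shared clones, compared with the other 5685 spleen cells of the library, had 359 and 8.50 CPM of Pdcd1, 550 and 21.9 CPM of Gzmk, 376 and 22.02 CPM of Gzma and 75.3 and 9.04 CPM of Cxcr6. Most of the Pdcd1 came from the TRBV12-1 pair: its 14 spleen cells had 918 CPM of Pdcd1, 1013 CPM of Gzmk and 172 CPM of Cxcr6, and the 27 spleen cells of the other clones had 116, 349 and 33.2 CPM. Gzma was at 306 CPM in the pair and 407 CPM in the others. Together the 41 cells had less of the naive gene Tcf7 than the other spleen cells (110 and 402 CPM) and less S1pr1, with 86.9 CPM (48.6 to 143) against 155 CPM. The lower S1pr1 was not seen in the pair, whose 14 cells had 153 CPM (66.0 to 301, from 8 UMIs). The 27 spleen cells of the other clones had 58.2 CPM (23.4 to 120, from 7 UMIs). Klf2 was at 689 and 705 CPM, and Klf3 at 156 CPM (103 to 228) and 184 CPM. The 14 spleen cells of the TRBV12-1 pair had 306 CPM of Prss2, 688 CPM of Penk and 153 CPM of Coch, from 16, 36 and 8 UMIs. In the other 5685 cells these genes were at 2.56, 1.03 and 0.107 CPM, and the 27 spleen cells of the other spleen-shared clones had 0 UMIs of each. Gzma was at 306 CPM (175 to 497) in these 14 spleen cells and at 6475 and 7106 CPM in the pair's liver clones, in separate libraries.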

How the data were processed

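Expression values are raw UMI counts per gene and barcode as the authors deposited them, with no normalization, and receptor contigs come from deposited tables with UMI counts per contig. Cell Ranger and mm10 are named in the submitters' processing notes, and per the file headers the matrices carry software version 3.1.0. All other steps were computed here with scipy 1.17.1, pandas 2.3.3 and numpy 2.4.6 under Python 3.11.15, and drawn with matplotlib 3.10.9. Liver cells needed at least 500 UMIs, 300 genes and under 10% mitochondrial UMIs; all cells of the clones passed. No doublet caller was run, and cells with 2 TRB chains (0.260% of spleen-shared and 4.93% of liver-only cells) were left out as an alternative.

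Levels are CPM of the UMIs of a class or clone. A log2 ratio over cells has a 95% exact conditional binomial interval, which was tested on simulated data; CPM intervals are exact Poisson and shares exact binomial (Clopper-Pearson). Genes needed 50 UMIs over both classes, and a gene counts as higher or lower at 1.5-fold. A class with 0 UMIs was set at 3 counts over the class (31 genes). All 31 were at 0 in the spleen-shared class, so they passed the minimum through the liver-only class alone and could only come out lower over cells. With both classes in 1 library no p-value can be given. Always named were Eomes, Pdcd1, Cxcr6, S1pr1, Klf2, Tcf7, Klrg1, Cx3cr1, Tox, Lag3, Gzma and Gzmk, with a further gene that is not reported here. Then came the 12 highest and 12 lowest by the interval bound nearest equality among genes 1.5-fold apart the same way by both measures, without receptor, mitochondrial, ribosomal, sex-linked, Gm and Rik genes and markers of other cells, and members of lists. Nr4a1, Itgb1, Itgb7, S1pr4, Cd69 and the clones described singly were chosen after their values were seen. Clones, lists and members were chosen with earlier results of these data known. Also settled after values were seen were the 3 counts for a class at 0 when each clone counts once, which brought Slc16a11, Filip1, Klri2 and Arap3 among the 12 lowest in place of Tnfrsf9, Mrc2, Gcsam and Cd200r1, the exclusion of gamma receptor genes as receptor genes, and the symbol Cd244 for Cd244a in a list. The library totals were 20572245 UMIs in EomesTG liver and 28282240 in EomesTG spleen. Gene positions are from GENCODE M21.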

Additional observations from a re-analysis of the deposited data

How the results depend on the processing

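Results were recomputed under 19 alternatives, 3 of them (without the TRBV12-1 pair, with the pair as 1 clone, and without liver-only clones whose TRB was seen in spleen) chosen after seeing the data. No paired analysis was possible because each strain and organ is 1 pooled library and both classes come from the same one. The log2 ratios of named genes at least 1.5-fold apart kept their direction in 1020 of 1030 cases and list medians in 223 of 228. They were still past 1.5-fold in 988 and 201 cases. Pdcd1 (to -0.51) and Gzma (to -0.47) fell under 1.5-fold over cells in 4 alternatives each. With each clone once, Tox (to -0.083) and the inhibitory list (to -0.34) did so in 4, and Klf2 (0.43) and Cxcr6 (-0.46) in 1. Most of these genes were named because they lay 1.5-fold apart in these same data. Cases with 0 UMIs in a class were left out, such as Coch without the pair (0 against 134 UMIs). The alternatives in the minimum of UMIs could not change the ratio of a gene. These counts are therefore a description and no test. Clone size over kept cells and the use of all deposited barcodes changed no clone and no cell.

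The number of genes past 1.5-fold moved with the cells and genes that entered. Over cells it was 404 higher and 986 lower; in clones of 3 to 10 barcodes, where 3050 genes were tested, 239 and 405, at a minimum of 200 UMIs 104 and 345, at a minimum of 10 UMIs 866 and 1509, and without the TRBV12-1 pair 966 and 1814. With each clone once it was 1112 higher and 2060 lower; in clones of 3 to 10 barcodes 271 and 461, with at most 20 cells of a clone 601 and 1187, and at a minimum of 200 UMIs 459 and 856.

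Of the genes, Coch reversed to -0.093 with each clone once when clones were defined by TRB alone and to -0.22 with the TRBV12-1 pair as 1 clone. With clones of at least 2 barcodes Tcf7 (-0.57), Itgax (-0.23), Penk (-0.084) and the naive list (-0.32) reversed with each clone once, and Itgax (-0.36) when 2 spleen barcodes were needed. The naive list also reversed in clones of 3 to 10 barcodes, over the 3 genes with 50 UMIs there (-0.031 over cells and -0.089 with each clone once), while all 8 genes gave 0.77 and 0.54 in those clones. At a minimum of 200 UMIs it reversed (-0.40 and -0.91) over 2 genes, Actn1 and Foxp1. Without the TRBV12-1 pair Prss2 (-0.32 over cells and -3.59 with each clone once), Ppic (-0.16 over cells) and Ier3 (-0.16 over cells) reversed. The cause of these reversals was not tested beyond the smaller sets of clones or genes. Depth limits low genes in small clones, and 1 spleen-shared and 7 liver-only clones have under 10000 UMIs.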
